A study of Mus musculus with 8 samples.

Results

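The 41 genes described here carry out DNA replication and S phase, the stage of the cell cycle in which the genome is copied. They were taken from a named list, and their probes were found by gene name among the 55681 non-control probes of a mouse Agilent 8x60K expression array. All 41 had at least 1 probe, 56 probes in all, and 39 were measured among the 19751 genes that gave a value. A gene counts as measured when 4 or more of the 8 arrays marked its probe as well above background. Pola2, a subunit of DNA polymerase alpha, was well above background on 1 ischemia array and on 0 control arrays. Ccne2, which encodes cyclin E2, was well above background on 0 of 8 arrays. Neither gave a value.

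The study set 4 pups exposed to ischemia before birth against 4 control pups. In the ischemia group, clips closed the uterine arteries of the pregnant mother for 14 min under anesthesia at E16.5, late in gestation. All 8 pups were male, of the inbred strain C57BL/6NCr, and cortex was taken from both groups at postnatal day 1.5, with 1 single-colour array for each pup. Whether the control mothers had anesthesia or surgery is not in the labels, nor is the litter of each pup, so p-values measure only the spread between the sampled pups. The maternal occlusion also does not show how much blood flow each fetus lost. All 10 markers of immature cortical neurons and all 12 of radial glia, the stem cells of the developing cortex, were measured. Of 7 markers of the external granule layer and ganglionic eminence, 5 were measured. Among them Dlx1, of the ventral forebrain, averaged 1028 in ischemia and 941 in controls, while Nkx2-1, also of the ventral forebrain, was well above background on 0 arrays. Whether the dissection held ventral forebrain cannot be told from these markers.

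Before each S phase, ORC, CDC6 and CDT1 load the MCM helicase on origins of replication, which licenses them to fire once. Cyclin E and its kinase and the GINS complex then help to start the helicase, and DNA polymerases copy both strands with the help of the PCNA ring, while E2F transcription factors switch on many of these genes as cells leave G1. In the cortex around birth, the cells that still divide are mostly radial glia, intermediate progenitors and glial precursors, whereas neurons have left the cycle.

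Most replication genes lay slightly lower in ischemia cortex than in control cortex, but none passed the test over all genes. Of the 39 measured, 34 had a lower mean in ischemia and 5 a higher one, namely Mcm7, Orc6, Prim1, Prim2 and Rfc3, while 55.5% of all genes were lower. The median difference of the members, ischemia minus control, was -0.10 on the log2 scale, with quartiles of -0.20 and -0.06 and a range of -0.62 to 0.13. The median over all genes was -0.02. With limma and adjustment over all genes, 0 of 39 members passed an adjusted p of 0.05, and 1 of all genes did (0.00506%). At an unadjusted limma p under 0.05, 10 members were lower, 25.6% of those measured, against 6.98% of all genes. In this fit no member was higher at that threshold, against 3.49% of all genes, although Mcm7 was under 4 alternatives. The 10 were Tk1, Uhrf1, Pole, Gins2, Cdc6, Mcm3, Mcm2, E2f2, Ccne1 and Cdt1. The Cdc6 probe used was well above background on 1 of 4 ischemia arrays and 3 of 4 control arrays. Without Cdc6, 9 of 38 members were lower at that threshold (23.7%). In 3 members, Tk1, Uhrf1 and Pole, every ischemia array lay below every control array, a share of 7.69% of the members against 3.9% of all genes. These are levels in bulk tissue, in which fewer cells of a type and less RNA per cell cannot be told apart.

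The count depended on scaling and on single arrays. Each array was divided by its own 75th percentile, and without that step 17 of 39 members were lower, with a median of 0.03, while the median of all genes moved to 0.11. Set against the median of all genes, 32 of 39 members lay below it, by a median of -0.08. Scaling shifts the difference of every gene by the same amount, so these values cannot change with it and are no check of it. The count at an unadjusted limma p under 0.05 was 5 without control replicate 1, 6 without control replicate 2 (5 lower, and Mcm7 higher) and 5 without ischemia replicate 3, each with 0 members passing after adjustment. All 8 arrays lay on 1 slide, the ischemia arrays in 1 row and the control arrays in the other, so that slide row and group cannot be told apart.

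**Figure D1:**
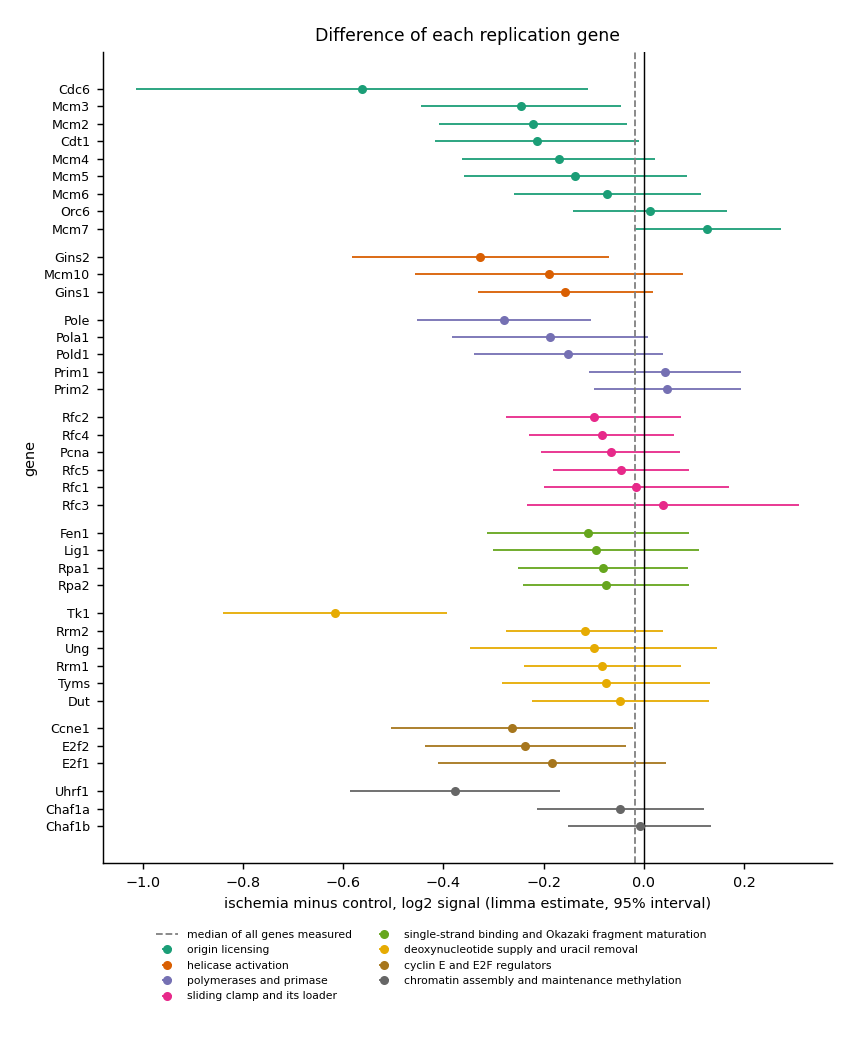
Difference of each of the 39 measured replication genes, ischemia minus control, in log2 signal on the horizontal axis. Points are limma estimates with their 95% intervals, coloured by role, and the dashed line is the median of all genes measured (-0.02). The intervals of 10 genes lie wholly below 0 and none lies wholly above it.

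Single arrays differed in how far the replication genes departed from the control mean. The median deviation of the 39 members was -0.09, -0.13, -0.19 and -0.04 in ischemia replicates 1 to 4, against 0.06, 0.05, -0.13 and 0.00 in control replicates 1 to 4. All 4 ischemia arrays were below 0 in this measure, and control replicate 3 lay as low as ischemia replicate 2, so the groups overlapped. Below the control mean were 34, 35, 29 and 28 of the 39 members in ischemia replicates 1 to 4. The same held for 34 members in control replicate 3, against 10, 10 and 19 in control replicates 1, 2 and 4. Ischemia replicate 3 was the lowest of all 8 arrays for 15 members, and control replicate 1 was the highest for 16. In 21 members all 4 ischemia arrays lay below the control mean, and in 32 members at least 3 did.

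**Figure D2:**
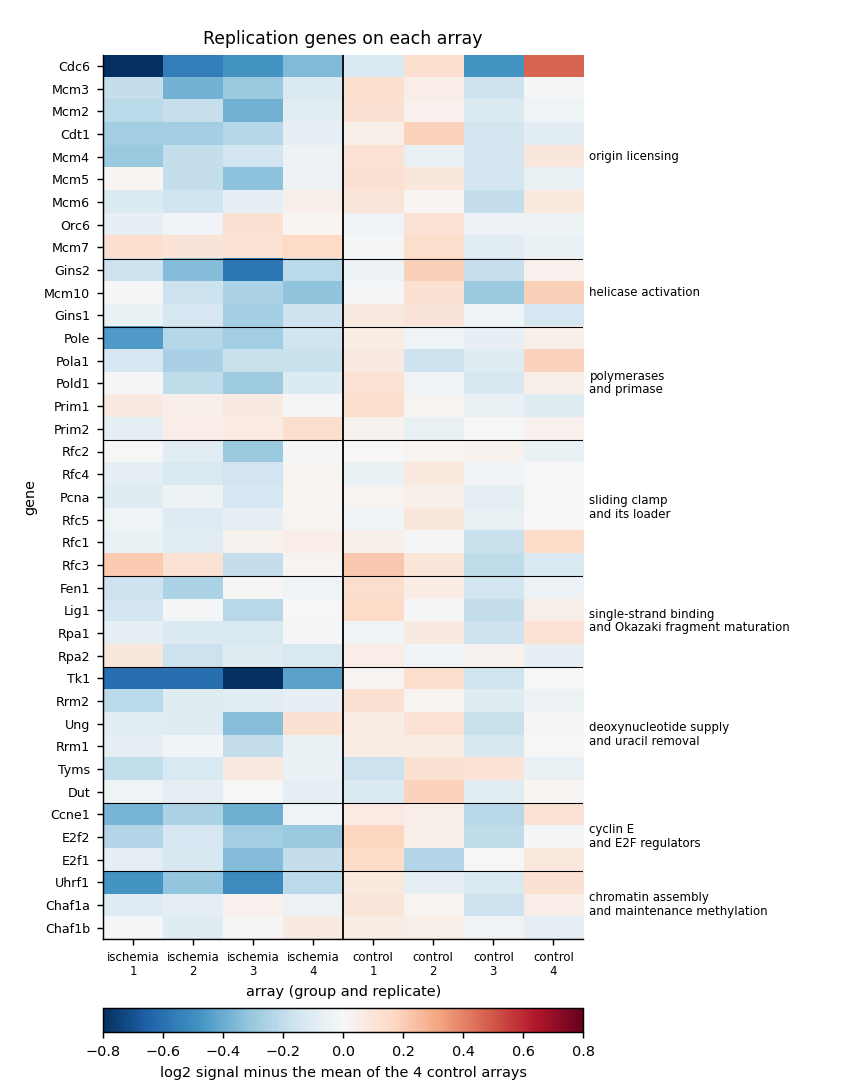
Each row is a measured replication gene, grouped by role and ordered by difference within its group, and each column is an array, with ischemia on the left. Colour gives the log2 signal minus the mean of the 4 control arrays. Tk1 and Uhrf1 are below the control mean on every ischemia array, and control replicate 3 is below it for 34 of 39 genes.

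Promoter sequences were compared because E2F factors control many replication genes. RefSeq windows of 300 bases (assembly GRCm38.p6), from 250 bases before to 50 after the start of transcription, were matched to 34 of the 41 members, and Mcm4, Gins1, Gins2, Prim2, Pole, Rfc2 and Ccne2 had no entry. Both strands were searched for the E2F motifs TTTCCCGC, TTTCGCGC, TTTGCCGC and TTTGGCGC, which can overlap one another. At least 1 stood in the windows of 12 of 34 members (35.3%), against 495 of 11362 measured genes with a window (4.36%). Of 58 other replication genes with a window, 22 held one (37.9%), as did 1 of 33 genes of mitosis and the spindle (3.03%). The CHR motif TTTGAA, searched the same way, stood in 3 of 34 members (8.82%), in 24 of 33 mitosis genes (72.7%), in 16 of 58 other replication genes (27.6%) and in 14.3% of all measured genes with a window. The CCAAT box, CCAAT on either strand, stood in 19 of 34 members (55.9%), in 24 of 33 mitosis genes (72.7%) and in 29 of 58 other replication genes (50.0%), against 42.4% of all measured genes with a window. A match describes letters only and is no evidence of binding.

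The 5 windows printed here show the range among members, in lower case with the E2F motifs in capitals. Mcm3 and Mcm6 hold several motifs, and Mcm7 holds 2 although it was higher in ischemia. Uhrf1 holds 1, and Tk1, with the largest difference, holds none of these letters in its window. They lie at chr11:117825965-117826264 on the minus strand (Tk1), chr17:56304063-56304362 on the plus strand (Uhrf1), chr1:20820263-20820562 on the minus strand (Mcm3), chr1:128359656-128359955 on the minus strand (Mcm6) and chr5:138171834-138172133 on the minus strand (Mcm7). Uhrf1 and Mcm7 each have a further window without a motif, which is not shown.
Tk1: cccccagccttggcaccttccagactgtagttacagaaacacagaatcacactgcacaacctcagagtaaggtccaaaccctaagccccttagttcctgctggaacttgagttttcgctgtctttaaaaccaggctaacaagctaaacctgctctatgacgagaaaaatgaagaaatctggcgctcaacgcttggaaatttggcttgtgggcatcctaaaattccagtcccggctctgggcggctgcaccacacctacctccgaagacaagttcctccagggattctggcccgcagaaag
Uhrf1: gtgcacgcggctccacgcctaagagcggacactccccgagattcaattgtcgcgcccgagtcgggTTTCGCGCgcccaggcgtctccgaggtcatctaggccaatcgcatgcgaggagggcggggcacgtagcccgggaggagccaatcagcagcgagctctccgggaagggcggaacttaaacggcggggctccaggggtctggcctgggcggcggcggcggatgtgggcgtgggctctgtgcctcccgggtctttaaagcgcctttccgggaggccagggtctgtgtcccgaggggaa
Mcm3: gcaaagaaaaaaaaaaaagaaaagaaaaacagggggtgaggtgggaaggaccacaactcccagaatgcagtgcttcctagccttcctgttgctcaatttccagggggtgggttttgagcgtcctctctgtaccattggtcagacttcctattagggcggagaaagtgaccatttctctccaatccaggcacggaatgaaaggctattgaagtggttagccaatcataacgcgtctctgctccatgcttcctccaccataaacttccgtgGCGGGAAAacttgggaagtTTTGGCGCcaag
Mcm6: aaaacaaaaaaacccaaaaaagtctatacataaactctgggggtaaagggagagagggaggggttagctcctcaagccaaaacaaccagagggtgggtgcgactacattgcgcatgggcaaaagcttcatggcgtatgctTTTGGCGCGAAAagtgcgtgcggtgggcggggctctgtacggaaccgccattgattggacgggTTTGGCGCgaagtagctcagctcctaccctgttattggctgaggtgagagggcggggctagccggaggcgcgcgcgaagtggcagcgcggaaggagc
Mcm7: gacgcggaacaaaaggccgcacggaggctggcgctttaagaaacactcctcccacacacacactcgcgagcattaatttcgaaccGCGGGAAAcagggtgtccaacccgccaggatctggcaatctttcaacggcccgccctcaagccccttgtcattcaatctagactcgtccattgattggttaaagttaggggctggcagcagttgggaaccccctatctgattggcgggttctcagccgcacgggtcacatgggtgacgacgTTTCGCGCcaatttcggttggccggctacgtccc

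Measured members whose windows held an E2F motif were lower in 10 of 12 cases, with a median difference of -0.17. At an unadjusted limma p under 0.05, 5 of them were lower, Cdc6 among them. Members whose windows held none were lower in 19 of 21 cases, with a median of -0.08 and 3 at that threshold. Over all measured genes with a window, 248 of the 495 with a motif and 5501 of the 10867 without one were lower. Each of these sets had a median difference of -0.00, and 28 and 622 of them were lower at that threshold. Counted from the start of transcription, with negative positions before it, the motif of Uhrf1 began at -185, those of Mcm3 at 20 and 39, those of Mcm6 at -110, -106 and -47, and those of Mcm7 at -165 and 17. No test was made between members with and without the motif.

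Origin licensing took in 9 measured genes, of which 7 were lower, with a median difference of -0.17. At an unadjusted limma p under 0.05, 4 were lower, Cdc6 among them. For this and each role below, the shares over all genes were 55.5% lower and 6.98% lower at that threshold. Values below are scaled signals, the processed intensity after scaling each array, which compare 1 probe between arrays and not different genes. Cdc6, the loading factor, had signals of 18.5, 22.9, 24.2 and 26.3 in the ischemia arrays, against 31.0, 37.0, 24.2 and 46.4 in the control arrays. All but 1 control array lay above the ischemia arrays, and the probe was dim, well above background on 1 of 4 ischemia arrays and 3 of 4 control arrays. Its difference was -0.56 (SE 0.20, limma adjusted p = 0.401, exact permutation p = 0.0857). Without Cdc6, 33 of 38 members were lower, 9 of them at an unadjusted limma p under 0.05, and the median was -0.10.

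Mcm3, a subunit of the MCM helicase ring, had signals of 912, 800.3, 844 and 959 in the ischemia arrays, against 1140.2, 1076, 925 and 1027 in the control arrays. The groups overlapped only through ischemia replicate 4 and control replicate 3. The difference was -0.24 (SE 0.09, limma adjusted p = 0.402, exact permutation p = 0.0571), and a second Mcm3 probe gave -0.32. The Mcm3 probes overlap on the genome, so the second is no separate check. The other ring subunits did not move as 1 block. Mcm2 differed by -0.22, Mcm4 by -0.17, Mcm5 by -0.14 and Mcm6 by -0.07. Mcm7 went the other way by 0.13 (SE 0.06), with signals of 3637, 3564, 3593 and 3699 in ischemia against 3299.6, 3659, 3134 and 3203 in controls. All 4 ischemia arrays of Mcm7 lay above 3 control arrays, and control replicate 2 lay among them. The unadjusted limma p of Mcm7 was 0.0830, and it was 0.0443 with quantile normalization, 0.0383 with normexp background correction, 0.0246 without scaling and 0.0193 without control replicate 2. Its adjusted limma p was 0.394 to 0.8999 over the alternatives. Cdt1, which brings the MCM ring to origins, differed by -0.21, and Orc6, a subunit of the origin recognition complex, by 0.01.

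All 3 genes of helicase activation were lower, with a median of -0.19. Gins2, a subunit of the GINS complex that joins the MCM ring to form the active helicase, had signals of 140.4, 124, 106 and 135 in ischemia against 153, 179.5, 139 and 161 in controls. Only ischemia replicate 1 reached the lowest control array. The difference was -0.33 (SE 0.11, limma adjusted p = 0.391, exact permutation p = 0.0571). Its partner Gins1 had 1025, 969.9, 883 and 951 in ischemia against 1119, 1145, 1039 and 969 in controls, a difference of -0.16 (SE 0.08, limma adjusted p = 0.521, exact permutation p = 0.0857). Control replicate 4 was among the ischemia values. Mcm10, which helps to start the helicase, differed by -0.19.

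Among polymerases and primase, 3 of 5 measured genes were lower, with a median of -0.15. The polymerase subunits were the lower ones, while both primase subunits differed by less than their SE. The contrast between them was not tested. Pole, the catalytic subunit of the leading-strand polymerase epsilon, had signals of 357, 416, 403 and 437 in ischemia against 508, 476, 465 and 502 in controls. The groups did not overlap. The difference was -0.28 (SE 0.08, limma p = 0.00568, adjusted p = 0.309, exact permutation p = 0.0286), and 0.0286 is the smallest p that 70 assignments of 4 against 4 arrays can give. Its probe lies at chr5:110766375-110766434 on the plus strand (mm9). Pola1, the catalytic subunit of polymerase alpha, had 274, 251, 266 and 265 in ischemia against 316, 268, 281 and 341 in controls. It differed by -0.19 (SE 0.09, limma adjusted p = 0.497, exact permutation p = 0.0571), and only ischemia replicate 1 passed the lowest control. Pold1, the catalytic subunit of polymerase delta, differed by -0.15, and the primase genes Prim1 and Prim2 by 0.04 and 0.05 (SE 0.07 and 0.06). A second, dim Prim2 probe went the other way, at -0.04 (SE 0.18).

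Of the sliding clamp and its loader, 5 of 6 genes were lower, with 0 at an unadjusted limma p under 0.05 and a median of -0.06. Pcna, the ring that holds polymerases on DNA, had 5909.6, 6148, 5734 and 6407 in ischemia against 6417, 6546, 6013 and 6344 in controls. It differed by -0.07, with a 95% interval of -0.20 to 0.07, and the groups overlapped. Rfc4, a subunit of the clamp loader RFC, had 1663, 1613, 1578 and 1787 in ischemia against 1697, 1857, 1727 and 1754 in controls. Its difference was -0.08 (SE 0.06, limma adjusted p = 0.696, exact permutation p = 0.143), and ischemia replicate 4 lay above 3 controls. Rfc2 had 1706, 1605, 1391 and 1687 in ischemia against 1714, 1731, 1740.4 and 1643 in controls, a difference of -0.10 (SE 0.08, limma adjusted p = 0.701, exact permutation p = 0.171), with ischemia replicate 3 the lowest and the groups overlapping. The loader subunits Rfc1, Rfc3 and Rfc5 differed by -0.01, 0.04 and -0.05.

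All 4 genes of single-strand binding and Okazaki fragment maturation were lower by little, with a median of -0.09 and 0 at an unadjusted limma p under 0.05. Fen1, the nuclease that trims Okazaki fragments, had 1841, 1731, 2075 and 2021 in ischemia against 2274, 2151, 1859.8 and 2002 in controls. The difference was -0.11 (SE 0.09, limma adjusted p = 0.714, exact permutation p = 0.229), and the groups overlapped widely. Rpa1, of the single-strand binding protein RPA, had 4792, 4649.7, 4634 and 4991 in ischemia against 4962, 5298, 4502 and 5463 in controls. Its difference was -0.08 (SE 0.07, limma adjusted p = 0.756, exact permutation p = 0.286), control replicate 3 was the lowest of all, and a second probe gave 0.01. Its partner Rpa2 differed by -0.08 and Lig1, the ligase that seals the fragments, by -0.09.

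Supply of deoxynucleotides held the largest difference of all members. Tk1, the thymidine kinase of dividing cells, had signals of 332, 333, 287 and 376 in ischemia against 513, 559, 453 and 506 in controls. Every ischemia array lay below every control array, at 332 ± 36.4 in ischemia and 508 ± 43.3 in controls (SD, n = 4 arrays each). The difference was -0.62 (SE 0.10, 95% interval -0.84 to -0.39), or -34.8% on the linear scale, and by its unadjusted limma p of 0.000191 it ranked 21 among all genes. It did not pass over all genes (limma adjusted p = 0.175, exact permutation p = 0.0286). With a trended and robust variance it passed at an adjusted limma p of 0.0338, as 24 of all genes did (0.122%). The Tk1 probe lies at chr11:117676845-117676904 on the minus strand (mm9), and a second, dim Tk1 probe had means of 76.3 in ischemia and 88.6 in controls, a difference of -0.27 (SE 0.27). The 2 measured probes shared a sign and differed in size.

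The other 5 genes of this role were all lower, by differences of -0.12 to -0.05, with 0 of them at an unadjusted limma p under 0.05. Rrm2, the regulated subunit of ribonucleotide reductase, had 2545, 2763, 2775 and 2821 in ischemia against 3211, 2997, 2759 and 2879 in controls. Control replicate 3 stood among the ischemia arrays, and the difference was -0.12 (SE 0.07, limma adjusted p = 0.595, exact permutation p = 0.114). Its partner Rrm1 differed by -0.08, Tyms, the thymidylate synthase, by -0.08, Dut, which removes dUTP, by -0.05 and Ung, which cuts uracil from DNA, by -0.10.

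Regulators of entry into S phase were lower in all 3 measured cases, with a median of -0.24 and 2 at an unadjusted limma p under 0.05. Ccne1, which encodes cyclin E1, had 467, 506, 461 and 589 in ischemia against 631, 624, 517 and 653 in controls. Ischemia replicate 4 overlapped control replicate 3, and the difference was -0.26 (SE 0.11, limma adjusted p = 0.440, exact permutation p = 0.0571). E2f2, an activating E2F factor, had 237, 255, 230.5 and 227 in ischemia against 316, 289, 243 and 276 in controls. Only ischemia replicate 2 reached the controls, and the difference was -0.24 (SE 0.09, limma adjusted p = 0.417, exact permutation p = 0.0571). E2f1, the best known activating E2F, differed by -0.18.

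Chromatin assembly and maintenance methylation took in 3 genes, all lower, with a median of -0.05 and 1 at an unadjusted limma p under 0.05. Uhrf1, which brings the maintenance methyltransferase DNMT1 to newly copied DNA, had signals of 674, 757, 661 and 813 in ischemia against 991, 889, 865 and 1024 in controls. The groups did not overlap, and its difference of -0.38 (SE 0.09, limma p = 0.00297, adjusted p = 0.274, exact permutation p = 0.0286) ranked 213 among all genes. Its probe lies at chr17:56462770-56462829 on the plus strand (mm9). The chromatin assembly factor gene Chaf1a had 367, 375, 403 and 382 in ischemia against 422, 399.5, 351 and 408 in controls. It differed by -0.05 (SE 0.07, limma adjusted p = 0.871, exact permutation p = 0.486), with control replicate 3 the lowest array, and its partner Chaf1b differed by -0.01. A second Chaf1b probe, with means of 1308 in ischemia and 1460.1 in controls, gave -0.16 (SE 0.08).

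**Figure D3:**
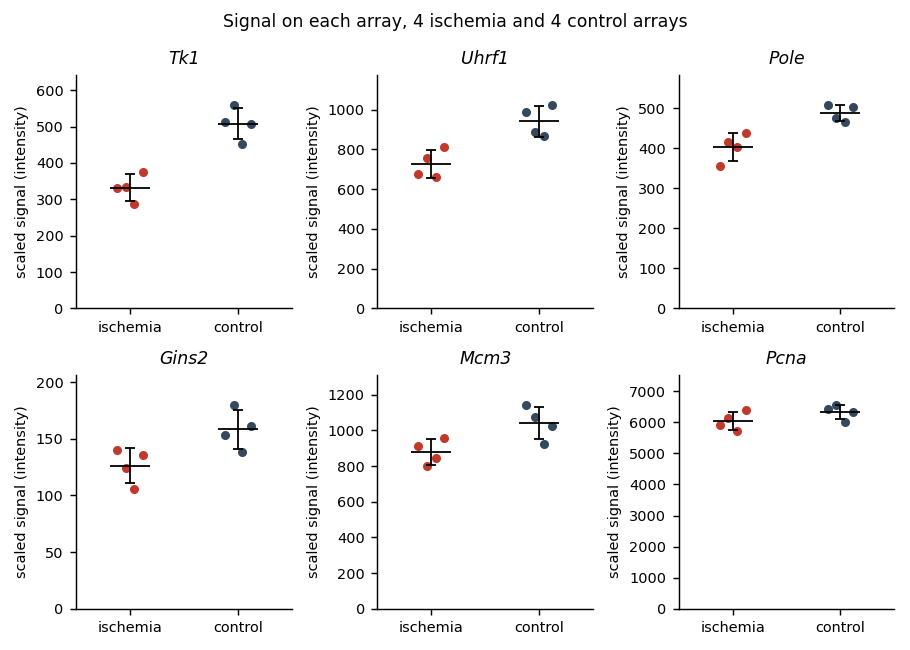
Scaled signal (intensity, axis from 0) of 6 replication genes on each array, 4 ischemia arrays on the left and 4 control arrays on the right of each panel. Bars give the mean and SD of 4 arrays. Tk1, Uhrf1 and Pole do not overlap between groups, while Gins2, Mcm3 and Pcna do.

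In 7 members with a second measured probe, the second had the same sign in 5 and was lower in 6. The Mcm3 probes overlap on the genome, so their shared sign is no separate check.

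A further list of replication genes outside the members was read beside them. Of 70 measured from a list of 74, 46 were lower (65.7%, against 55.5% of all genes) and 24 higher, with a median of -0.04. None passed the adjusted test. At an unadjusted limma p under 0.05, 11 were lower (15.7%, against 6.98% of all genes) and 2 higher. In 3 of them (4.29%, against 3.9% of all genes) every ischemia array lay below every control array, and in 1 every ischemia array lay above. Asf1b, a histone chaperone, averaged 174 in ischemia and 233 in controls, a difference of -0.43 (limma adjusted p = 0.261). Cdc7, the kinase that fires licensed origins, averaged 37.8 in ischemia and 53.3 in controls, a difference of -0.48 (limma adjusted p = 0.262). Orc1, Clspn, Dna2 and Hells gave no value.

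Genes of mitosis and the spindle, read from the same arrays, had a lower median than the replication genes. Of 36 measured from 40 listed, 33 were lower (91.7%, against 55.5% of all genes), with a median of -0.27, and 0 passed the adjusted test. At an unadjusted limma p under 0.05, 19 were lower (52.8%, against 6.98% of all genes), and 8 were lower without overlap (22.2%, against 3.9%). Ccnb2, a cyclin of mitosis, averaged 589.5 in ischemia and 830.0 in controls (difference -0.50, limma adjusted p = 0.253), and Spc24, of the kinetochore, differed by -0.41. The list's median lay at -0.19, -0.13, -0.56 and -0.25 in ischemia replicates 1 to 4, against 0.14, 0.02, -0.13 and 0.00 in control replicates 1 to 4. Ischemia replicate 3 was the lowest for both lists, and control replicate 3 was the lowest control for both. The difference between the lists was not tested.

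Regulators of G1 and of exit from the cycle had medians near 0. All 4 measured G1 cyclins and kinases were lower, with a median of -0.01, Ccnd1, cyclin D1, at -0.12 and Cdk4, its kinase, at -0.02. Of 7 genes that brake the cycle, 3 were lower and 4 higher, with a median of 0.02. Among these, 1 was lower and 1 higher at an unadjusted limma p under 0.05, and 1 was higher without overlap. Cdkn1c, an inhibitor of cyclin-dependent kinases, differed by 0.30 (limma adjusted p = 0.332), and Cdkn2c, an inhibitor of CDK4 and CDK6, by -0.27 (limma adjusted p = 0.419).

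**Figure D4:**
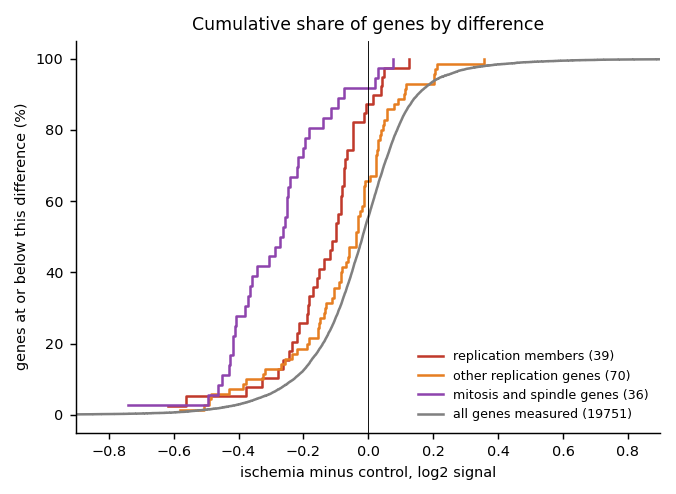
Share of genes (percent, vertical axis) at or below each difference, ischemia minus control in log2 signal, for the replication members, other replication genes, mitosis and spindle genes and all genes measured. At a difference of 0 the members' curve has reached 34 of 39 genes, against 55.5% of all genes, and the mitosis curve lies left of the members' curve over most of its length.

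Markers of dividing cells and of neurons were read from the same arrays. The median difference was -0.01 over 12 radial glia markers, 0.02 over 8 measured intermediate progenitor markers and 0.02 over 10 immature neuron markers. Of the 12 radial glia markers, 7 were lower and 5 higher, over a range of -0.23 to 0.19. Lower at an unadjusted limma p under 0.05 were 2 of the 12 (16.7%, against 6.98% of all genes), and 0 were higher. In 2 of the 12 every ischemia array lay below every control array (16.7%, against 3.9% of all genes). The markers with the smallest p were Nes at -0.23 and Fabp7 at -0.21 (limma adjusted p = 0.325 and 0.339). The median of this list overlapped between groups, at -0.04 to 0.05 in ischemia arrays and -0.11 to 0.06 in control arrays. The summed signal of the radial glia list was 90154 to 98825 in ischemia arrays and 100481 to 105465 in control arrays, without overlap. Fabp7 alone averaged 56324 in ischemia and 65054 in controls, so the sum mostly follows that gene. For intermediate progenitors it was 12863 to 13607 in ischemia and 11578 to 14048 in controls, with Neurog1 well above background on 0 arrays. Oligodendrocyte precursor markers were higher in 6 of 6 cases, with a median of 0.10, 0 at an unadjusted limma p under 0.05. Their part in the replication result was not tested.

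**Figure D5:**
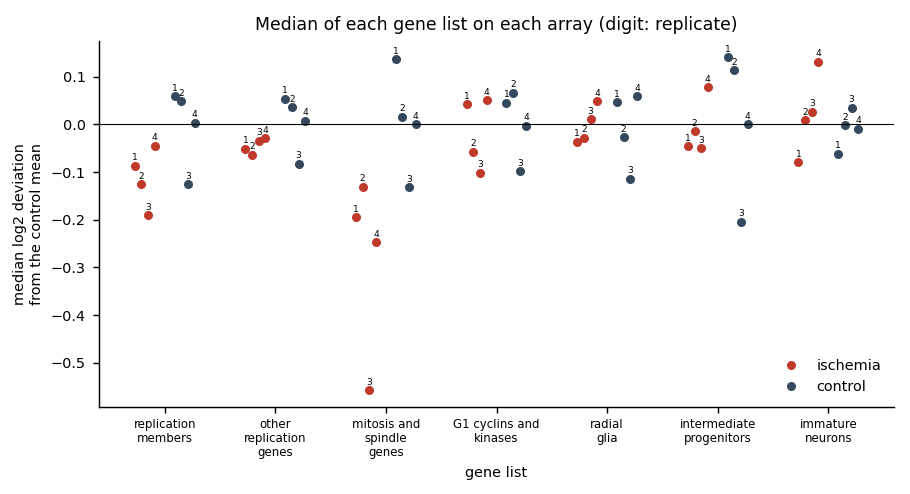
Median log2 deviation from the control mean of 7 gene lists on each array, with ischemia left of control in each list and the replicate number above each point. All ischemia arrays lie below 0 for replication members, other replication genes and mitosis genes. Control replicate 3 is the lowest control in every list shown except immature neurons.

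Markers of neighbouring tissue varied between arrays. Choroid plexus markers, of which 4 of 8 were measured and Kl, Clic6, Kcne2 and Slc4a5 were well above background on at most 1 array, summed to 159.9 to 40776 in ischemia arrays and 199 to 226 in controls, and 7 of 8 meningeal markers summed to 1118 to 5440.1 in ischemia and 1010.2 to 1449 in controls. The choroid plexus sum was high in ischemia replicate 4, and also above every control in ischemia replicate 3 at 266. The meningeal sum was highest in ischemia replicates 1 and 4, at 5440.1 and 5260.1, and above every control in ischemia replicate 3 at 1639.7. Without ischemia replicates 1 and 4, 35 of 39 members were lower, 9 at an unadjusted limma p under 0.05, with a median of -0.14. Erythroid markers were lower in 8 of 8 measured cases, with a median of -0.49 and sums of 63253 to 107360.0 in ischemia and 82215 to 150718 in controls. Median differences were 0.06 for astrocytes, 0.16 for microglia, 0.07 for endothelial cells, -0.05 for pericytes and -0.02 for the external granule layer and ganglionic eminence, with Atoh1 well above background on at most 1 array. Among microglia, 3 of 9 markers were higher at an unadjusted limma p under 0.05, against 3.49% of all genes, and 1 was lower. Also higher at that threshold were 1 of 8 endothelial, 1 of 7 astrocyte and 2 of 7 meningeal markers. Lower were 3 of 8 erythroid, 1 of 8 endothelial and 1 of 5 pericyte markers, against 6.98% of all genes. The part of these cells in the result was not tested.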

How the data were processed

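Total RNA of 8 cortices (50 ng each, labelled with Cy3 per the labels' protocols) was read on 1-colour arrays with Agilent Feature Extraction 10.7.3.1, per the submitters' processing notes. The deposited values used are linear intensities, namely the signal that the scanner software had processed to remove background, per the file headers. The ratio that the authors deposited as a value table was compared with this signal, on the 15455 to 15461 spots of an array with a ratio of 1 or more. A constant for each array related both there, to within 0.00500%, and the column medians of the ratio were 0.0836 to 0.1003. The meaning of that constant is unknown, but at 267 to 346 it lay close to the arrays' 75th percentiles of 271 to 348. The table served only as an alternative, and one close to the main scaling.

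Of 59305 non-control spots on an array, 47.6% to 51.7% passed the software's mark for well above background, with 0 saturated. Spots marked as outliers (165 to 189 on ischemia arrays, 134 to 144 on control arrays) were left out, which dropped 26 probes. Spots of a probe were averaged, and log2 of the signal was taken minus log2 of the array's 75th percentile (271 to 348). Printed signals are multiplied back by the geometric mean of these percentiles. Probes well above background on at least 4 arrays were kept (27131), and the probe with the highest mean stood for its gene. Names came through RefSeq accessions (27235 probes), current symbols (3581), older symbols (565) or the files (24300). Probe coordinates are mm9 as deposited, and exon or UTR was not analysed here. The number of arrays limits the precision.

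Groups were compared with limma 3.58.1 (R 4.3.3), p-values were adjusted by Benjamini-Hochberg across 19751 genes, and, for single members, a two-sided exact permutation test was added. The script was tested on simulated data. The members, lists and tests were chosen with earlier results of these data known. In each role the 2 members with the smallest p are given on every array, and Mcm7 and Pcna were added after their values were seen. Of each further list, up to 2 genes with the smallest p are named. Alternatives were other scalings, background correction, filters, probe rules, variance models, array weights, the value table, the replicate number as a block and leaving out arrays.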

Additional observations from a re-analysis of the deposited data

Results flagged for a closer look

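Among 80 sets of 4 arrays, 1 held an array far from the other 3, where chance marks about 1 set in 20, or 4 of 80. Orc6, of the origin recognition complex, was high in control replicate 2 (3295, against 2949.7 to 2987 in the other control arrays), where the gap to the next array was 0.885 of the group's range and Dixon's critical value was passed. The difference of Orc6 between the groups was 0.01.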

How the results depend on the processing

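Of 39 members, 20 kept the sign of their difference in every alternative that measured them, 13 turned only without scaling, and 6 turned elsewhere. Of those 20, 19 were measured in all 20 alternatives and Cdc6 in 19, since the filter for all 8 arrays drops it. A trended and robust variance and the replicate block cannot change a difference, so they are no check of its sign. The same holds for probe rules and filters in members whose probe stays the same. Without scaling the members' median was 0.032, 17 members were lower, 2 had an unadjusted limma p under 0.05 (1 lower, and Mcm7 higher), and 2 of all genes were called. Unscaled differences that turned were 0.086 for Chaf1a, 0.12 for Chaf1b, 0.085 for Dut, 0.021 for Fen1, 0.037 for Lig1, 0.060 for Mcm6, 0.066 for Pcna, 0.12 for Rfc1, 0.032 for Rfc2, 0.048 for Rfc4, 0.087 for Rfc5, 0.051 for Rpa1, 0.057 for Rpa2, 0.049 for Rrm1, 0.014 for Rrm2, 0.057 for Tyms and 0.032 for Ung, while the median of all genes moved to 0.11. With normexp, Chaf1a gave 0.00026, Chaf1b 0.00070 and Orc6 -0.014. Over all genes 1 was called, against 0 with quantile normalization, normexp, probes well above background on all 8 arrays or no filter on dim probes, and 24 with a trended and robust variance, where 1 member, Tk1, was called. Leaving out 1 array at a time, the calls over all genes were 0 to 1, members at an unadjusted limma p under 0.05 were 5 to 13, members lower were 32 to 36 and the median was -0.16 to -0.08. The differences that turned in some of those fits ranged from -0.034 to 0.021 for Chaf1b, -0.085 to 0.015 for Dut, -0.024 to 0.051 for Orc6, -0.074 to 0.036 for Rfc1 and -0.030 to 0.11 for Rfc3. Without ischemia replicates 1 and 4, an alternative chosen after seeing the data, 0 genes were called and Rfc3 differed by -0.037. Computing the members' median under each choice was also added then. With the replicate block 0 genes and 0 members were called, and the median, which this block cannot change, was -0.10. Same-numbered arrays, which share a slide column, correlated at 0.08, -0.06, 0.29 and 0.39. Ischemia replicates 3 and 4 correlated best with their own number and ischemia replicates 1 and 2 with another, and since not every value was over 0.1 the numbers were not taken as pairs. The cause of these changes was not tested.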
